A study of Oryctolagus cuniculus with 8 samples.

Results

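Transporters of the blood-retina barrier were examined in the retinas of rabbits kept on 4 diets. The 9 genes, chosen by symbol with diet results of these same libraries already known, were SLC2A1, SLC16A1, SLC3A2, SLC7A5, MFSD2A, SLC13A3, SLC6A6, SLC38A5 and ABCG2. Of these, 8 had a row among the 25666 genes of the table and 7 were abundant enough to be tested with 12204 protein-coding genes. No row carried the symbol ABCG2, a drug efflux pump, and it was not analysed here. SLC38A5 did not reach 1 FPKM in 2 libraries and is described without a fitted difference. Because the selection was made in view of the levels over the diets, the diet differences of these genes are a description.

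The retina is closed off from the blood by an inner barrier, the endothelium of the retinal vessels, and by an outer barrier, the retinal pigment epithelium. Tight junctions block passage between the cells, so that glucose, lactate, amino acids, taurine and lipids cross only on carriers of the solute carrier (SLC) and related families. Several of these carriers are not particular to vessels and are also made by Müller cells, photoreceptors or the pigment epithelium. The rabbit retina has vessels only along the medullary rays, which also hold its myelinated fibres, and most of its area is fed from the choroid across the pigment epithelium.

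RNA came from 8 whole dissected retinas of male Chinchilla rabbits labelled WT and about 10 months old, 2 retinas for each diet, after 6 months of feeding. ND was standard chow. HFD had 10% lard and 0.5% cholesterol added to the chow, HSD had 40% sucrose, and HFSD had 35% sucrose together with as much lard and cholesterol as HFD. The labels do not say that the retinas of a diet came from separate animals, so the spread between them may leave out differences between animals. The standard errors and p given here may then be too small. Levels are FPKM (fragments scaled to gene length and library depth), which can be compared between genes, and differences are on the scale of log2(FPKM + 1) with the standard error (s.e.m.) of a limma fit of all libraries. This scale understates changes of genes with low FPKM. The libraries were divided by depths between 15764577 and 22785832 fragments.

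Levels of cell type markers differed between libraries, within diets as well as between them. Between the ND retinas, 11 of 13 endothelium markers, 7 of 8 mural cell markers, 3 of 4 astrocyte markers and 7 of 7 myelin markers were higher in replicate 1, and KDR, FLT1, NOTCH3 and ALDH1L1 were higher in replicate 2. MBP, a myelin protein, was at 252 and 6.55 FPKM in these retinas, GFAP, an astrocyte filament, at 524 and 12.1 FPKM, and VWF, a product of endothelium, at 3.77 and 0.00648 FPKM. Of 14 endothelium markers 13 were found, of which 5 were at 0 in some library, and their summed level was 141 to 169 FPKM without sucrose and 129.8 to 167 FPKM with it. KDR made up most of that sum, at 75.8 to 131 FPKM, and the sum was lower in ND replicate 1 (141 FPKM) than in ND replicate 2 (153 FPKM). HSD replicate 2 held skeletal muscle RNA, with ACTA1 at 105 FPKM against at most 0.707 in any other library. In bulk tissue, fewer cells of a type and less RNA per cell cannot be told apart.

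The levels of the transporters spanned a wide range. SLC6A6 was the most abundant with a mean of 330.4±45.7 FPKM over all libraries (s.d., n=8), followed by SLC2A1 at 239±52.1, SLC16A1 at 179±36.0 and SLC3A2 at 53.0±9.07. SLC7A5 was at 9.94±1.14, MFSD2A at 3.92±3.02 and SLC13A3 at 3.49±2.53 FPKM, the last pair differing by less than their spread. SLC38A5 was lowest at 0.485±0.715 FPKM.

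**Figure D1:**
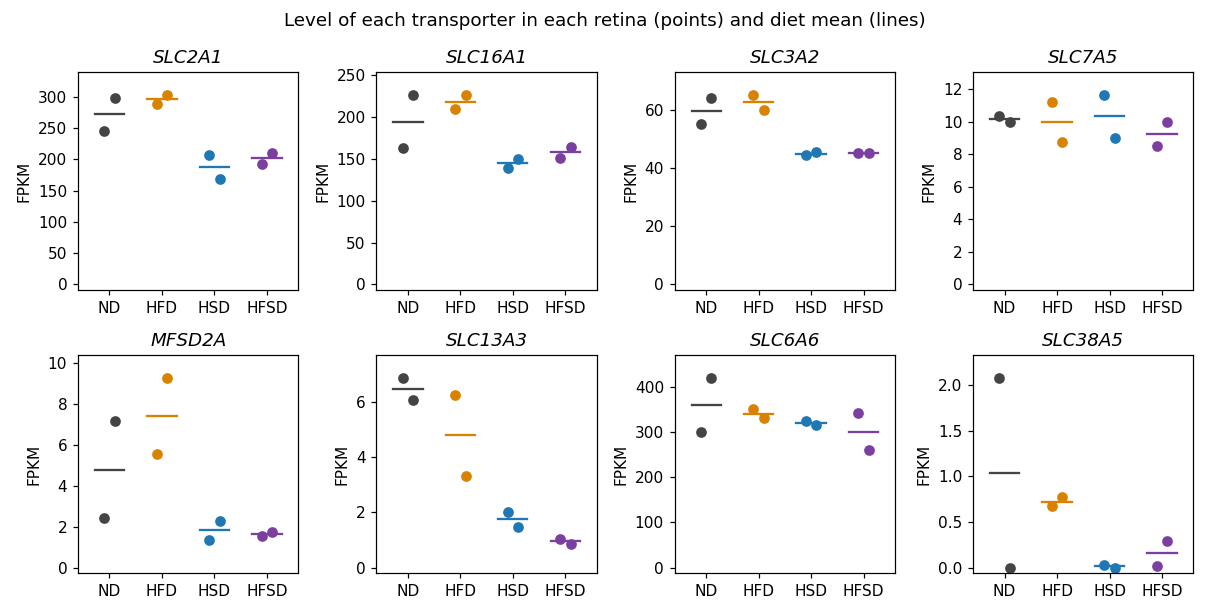
FPKM of the 8 transporters found (vertical axes, each starting near 0) in each retina (points) by diet (horizontal axes), with lines at the diet means of 2 retinas. For SLC2A1, SLC3A2, MFSD2A and SLC13A3 all HSD and HFSD points lie below all ND and HFD points.

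SLC2A1 encodes GLUT1, the glucose carrier of both barriers. It was at 246 and 297 FPKM (ND), 289 and 303 (HFD), 206 and 169 (HSD) and 193 and 211 (HFSD). The sucrose-fed retinas thus all lay below the others, and neither the ND and HFD pairs nor the HSD and HFSD pairs were separate from each other. The means ran in the order HFD (296±10.0 FPKM), ND (272±36.5), HFSD (202±12.6) and HSD (188±26.5; s.d., n=2 each). The log2 difference from ND was 0.13 (HFD), -0.53 (HSD) and -0.42 (HFSD) (s.e.m. 0.150). These 3 comparisons share the ND retinas. Over the 2 by 2 layout of the diets, the difference between diets with and without sucrose was -0.54 (s.e.m. 0.106), and the mean with sucrose was 31.4% lower.

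SLC16A1 encodes MCT1, which carries lactate and other monocarboxylates with protons. Its level was 163 and 226 FPKM (ND), 209 and 227 (HFD), 139.6 and 149.5 (HSD) and 151 and 164 (HFSD). The sucrose-fed retinas were at the low end, but ND replicate 1 fell among them, just below the higher HFSD retina. The log2 difference from ND was 0.18 (HFD), -0.41 (HSD) and -0.28 (HFSD) (s.e.m. 0.165), and -0.44 (s.e.m. 0.117) for the sucrose contrast, with a mean 26.7% lower. The ratio of SLC2A1 to SLC16A1 was 1.39±0.0870 without sucrose and 1.29±0.143 with it (s.d., n=4 each), and the ranges overlapped.

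SLC3A2, the heavy chain CD98, and SLC7A5, the light chain LAT1, form the heterodimer that exchanges large neutral amino acids across both barriers. SLC3A2 was at 54.9 and 64.0 FPKM (ND), 65.1 and 60.02 (HFD), 44.6 and 45.3 (HSD) and 45.1 and 45.2 (HFSD). The 4 sucrose-fed retinas lay within 1 FPKM of each other and below every other retina. The log2 difference from ND was 0.08 (HFD), -0.39 (HSD) and -0.39 (HFSD) (s.e.m. 0.112), and -0.43 (s.e.m. 0.0795) with sucrose, a mean 26.2% lower.

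The light chain showed no such order. SLC7A5 was at 10.3 and 9.99 FPKM (ND), 11.2 and 8.76 (HFD), 11.7 and 9.002 (HSD) and 8.49 and 10.0 (HFSD), and all diets overlapped. Its log2 difference with sucrose was -0.04 (s.e.m. 0.122), and the sign depended on the retina left out. The ratio of heavy to light chain was 6.09±0.676 without sucrose and 4.67±0.652 with it (s.d., n=4 each). The highest ratio with sucrose and the lowest without were both 5.31.

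MFSD2A carries lysophospholipids that hold docosahexaenoic acid into the retina, and in endothelium it limits transcytosis. It was at 2.41 and 7.19 FPKM (ND), 5.55 and 9.28 (HFD), 1.35 and 2.30 (HSD) and 1.55 and 1.76 (HFSD). The sucrose-fed retinas were the lowest 4, but ND replicate 1 was close to the highest of them. These values rest on 188 and 508 fragments (ND), 442 and 676 (HFD), 85 and 158 (HSD) and 141 and 111 (HFSD). The log2 difference from ND was 0.64 (HFD), -0.92 (HSD) and -0.99 (HFSD) (s.e.m. 0.417). The ND retinas weighed on each of these. Without ND replicate 1 the values were 0.00268, -1.56 and -1.63, and without ND replicate 2 they were 1.27, -0.29 and -0.36. For the sucrose contrast the difference was -1.28 (s.e.m. 0.295), between -1.59 and -0.96 with each retina left out, and the mean was 71.5% lower.

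SLC13A3 encodes NaDC3, a sodium-coupled carrier of succinate and other dicarboxylates. It showed the largest fitted difference among the transporters tested. Its level was 6.86 and 6.05 FPKM (ND), 6.26 and 3.32 (HFD), 1.999 and 1.49 (HSD) and 1.04 and 0.860 (HFSD). All sucrose-fed retinas were below the others, the HFSD pair below the HSD pair, and HFD replicate 2 stood between the sucrose-fed retinas and the rest. The fragments numbered 277 and 221 (ND), 258 and 125 (HFD), 65 and 53 (HSD) and 49 and 28 (HFSD). The log2 difference from ND was -0.41 (HFD), -1.45 (HSD) and -1.93 (HFSD) (s.e.m. 0.259). With sucrose it was -1.48 (s.e.m. 0.183), between -1.67 and -1.30 with each retina left out, and the mean was 76.0% lower.

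SLC6A6 encodes TauT, the carrier of taurine, of which the retina holds large amounts. It was at 301 and 419 FPKM (ND), 351 and 330.1 (HFD), 324 and 316 (HSD) and 342 and 259.9 (HFSD). The 2 ND retinas enclosed all but the lowest HFSD retina, and no diet stood apart from ND. The log2 difference with sucrose was -0.17 (s.e.m. 0.138).

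SLC38A5 encodes SNAT5, a glutamine carrier found in retinal vessels. It was at 2.08 and 0 FPKM (ND), 0.679 and 0.771 (HFD), 0.0331 and 0 (HSD) and 0.0229 and 0.297 (HFSD). The 2 ND retinas were the highest and, with HSD replicate 2, the lowest of all, so the diets could not be ordered. The fragments numbered 78 and 0 (ND), 26 and 27 (HFD), 1 and 0 (HSD) and 1 and 9 (HFSD). A count of 0 allows up to 3 fragments, or 0.0883 FPKM in ND replicate 2 and 0.0907 in HSD replicate 2, for counting error only. The endothelium markers summed to 141 and 153 FPKM (ND), 169 and 166 (HFD), 154 and 132 (HSD) and 167 and 129.8 (HFSD), a sum made up mostly of KDR. Like SLC38A5, 11 of the 13 endothelium markers were higher in ND replicate 1 than in ND replicate 2, and KDR and FLT1 were not. VWF was at 3.77 and 0.00648 FPKM (ND), 1.36 and 0.893 (HFD), 0 and 0.479 (HSD) and 0 and 0.727 (HFSD). EMCN, a sialomucin of endothelium, was at 2.39 and 0 FPKM (ND), 1.15 and 0.680 (HFD), 0 and 0.664 (HSD) and 0 and 0.363 (HFSD). Both were highest in ND replicate 1 and at or near 0 in ND replicate 2, HSD replicate 1 and HFSD replicate 1, as SLC38A5 was, and above 0 in HSD replicate 2, where SLC38A5 had no fragment. The part of vessel content in the SLC38A5 levels was not tested.

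**Figure D2:**
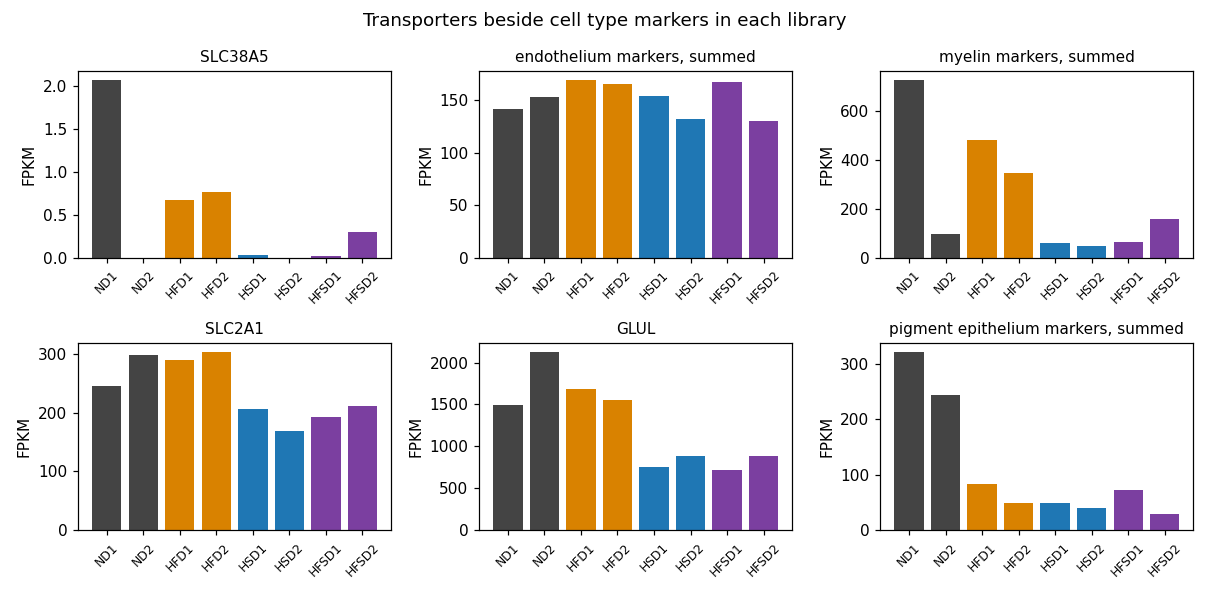
FPKM (vertical axes) in each library (bars, coloured by diet) of SLC38A5, the endothelium markers summed, the myelin markers summed, SLC2A1, GLUL and the pigment epithelium markers summed. ND replicate 2 has no SLC38A5 but SLC2A1 at 297 FPKM, and the endothelium sum, 129.8 to 169 FPKM, is mostly KDR and does not show the markers that were near 0 in ND replicate 2.

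Against ND, 6 of the 7 transporters tested were lower in HSD and 7 in HFSD, with a median log2 difference of -0.41 and -0.39, while in HFD 3 were lower and 4 higher, with a median of 0.08. Of all genes tested 50.5% were lower in HSD, 50.8% in HFSD and 48.8% in HFD. Over all genes tested the medians were between -0.0040 and 0.0064. In HSD, 5 of the 7 had both retinas below both ND retinas, as had 19.7% of all genes tested, and in HFSD 4, against 20.6%. None had both retinas above both ND retinas in HSD or HFSD, as 19.3% and 21.6% of all genes did. In HFD none of the 7 had both retinas below (13.3% of all genes) or above (12.5%) both ND retinas. In each of these comparisons 0 of the 7 had an adjusted p under 0.05 in limma, and 0 in voom, beside 0.0574% of all genes in HSD, 0.0164% in HFSD and 0.00819% in HFD in limma. At an unadjusted p under 0.05 in limma, 4 were lower in HSD (4.51% of all genes), 4 in HFSD (4.37%) and 0 in HFD (2.51%). Since the levels over the diets entered the selection, these shares describe the genes and test nothing.

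The study selected genes by a ratio of group means, each plus 1, under 0.65 or over about the reciprocal of that. By this rule SLC13A3, MFSD2A and SLC38A5 were under the lower limit in HSD, at 0.368, 0.487 and 0.498, and in HFSD, at 0.262, 0.458 and 0.569. Among all protein-coding genes 2.42% were under it in HSD, 2.4% in HFSD and 0.809% in HFD, and 1.53%, 1.03% and 0.949% were over the upper limit, which none of the transporters passed. SLC2A1 was just outside, at 0.692 in HSD and 0.744 in HFSD. With all libraries, none of the 8 passed either limit in HFD, and MFSD2A came nearest at 1.45. The counts rested on single ND retinas. Without ND replicate 1, SLC38A5 left the list and SLC13A3 and MFSD2A stayed. SLC2A1 and SLC16A1 then came under the limit in HSD, so that 4 genes passed in HSD and 2 in HFSD. Without ND replicate 2, MFSD2A left the list in HSD and HFSD and passed the upper limit in HFD. SLC38A5 then came under the lower limit in HFD as well, and SLC13A3 stayed on the list in HSD and HFSD.

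**Figure D3:**
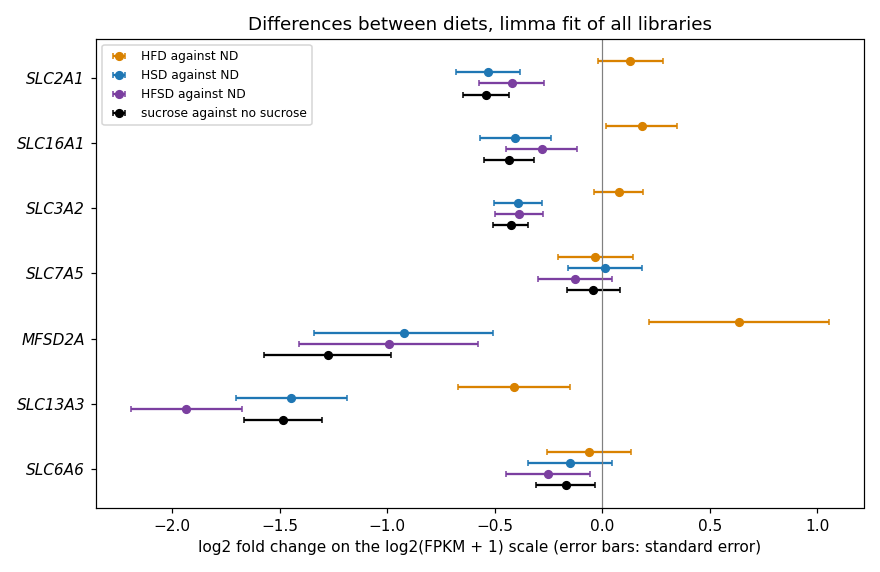
Log2 differences (horizontal axis, log2(FPKM + 1) scale) of the 7 transporters tested (vertical axis) in limma, for each diet against ND and for sucrose against no sucrose, with error bars of 1 standard error. SLC13A3 and MFSD2A lie farthest below 0 with sucrose, at -1.48 and -1.28, and SLC7A5 lies at -0.04.

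In the contrast of the diets with sucrose against those without, all 7 transporters had a negative log2 difference, as had 51.3% of all genes tested, and the median was -0.44. The 4 retinas with sucrose lay below all 4 others for SLC2A1, SLC3A2, MFSD2A and SLC13A3, a separation that 6.48% of all genes showed in this direction and 6.39%, with none of the 7, in the other. Only SLC13A3, 1 of the 7, passed an adjusted p under 0.05 as a lower gene, beside 0.287% of all genes (0.0574% were called higher). That call was lost in 9 of 17 alternative fits, among them those without ND replicate 1, HFD replicate 1 or any single one of the sucrose-fed retinas, with adjusted p up to 0.129 in limma with Benjamini-Hochberg adjustment. At an unadjusted p under 0.05, 5 of the 7 were lower, against 9.16% of all genes. For the fat diets against those without fat, 3 genes were lower, as were 47.4% of all genes, and 4 higher (median 0.04), none passed an adjusted p under 0.05 in limma or voom (0.00819% of all genes in limma), and at an unadjusted p SLC13A3 was lower (-0.45, s.e.m. 0.183; 2% of all genes). For the interaction of fat and sucrose none of the 7 passed either threshold in limma and 0 passed the adjusted one in voom (3.74% of all genes at an unadjusted p). Its largest value was -0.70 (s.e.m. 0.589) for MFSD2A.

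Markers of other cells also differed in value in this contrast, though in limma 0 of any marker list had an adjusted p under 0.05. Of 8 myelin markers 7 were found and tested, all 7 were lower with sucrose at an unadjusted p under 0.05 (9.16% of all genes) and 0 at an adjusted one, and their sum was 98.7 to 727 FPKM without sucrose and 46.8 to 160.3 with it. Of 8 Müller cell markers, 3 were lower in all sucrose-fed retinas (6.48% of all genes) and 0 passed the adjusted threshold, and the sum was 3503 to 4733 FPKM without and 2588 to 2752 with sucrose. GLUL, the glutamine synthetase of Müller cells, was at 1489 and 2127 FPKM (ND), 1685 and 1551 (HFD), 754 and 883 (HSD) and 722 and 889.7 (HFSD). RLBP1 and CLU were also lower in each sucrose-fed retina than in every other retina. SLC1A3 and KCNJ10, also Müller cell genes, differed by -0.01 and 0.03 on the log2 scale. Of 7 microglia markers, 4 were lower in all sucrose-fed retinas (6.48% of all genes) and 0 passed the adjusted threshold, and the sum was 13.9 to 23.2 FPKM without and 9.06 to 12.5 with sucrose. The part of Müller cell and microglia content in the transporter levels was not tested.

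Among the retinas without sucrose, ND replicate 2 had the lowest myelin sum, 98.7 FPKM, against 60.8 and 46.8 (HSD) and 62.5 and 160.3 (HFSD). It had SLC2A1 at 297 FPKM against at most 211 in the sucrose-fed retinas, SLC3A2 at 64.0 against at most 45.3, SLC16A1 at 226 against at most 164, MFSD2A at 7.19 against at most 2.30, and SLC13A3 at 6.05 against at most 1.999 FPKM. SLC7A5, at 9.99 FPKM, lay within the range of the sucrose-fed retinas. With sucrose 5 of the 8 endothelium markers tested and 5 of the 5 mural cell markers tested were lower in value, with a median log2 difference of -0.44 and -0.61, beside -0.44 for the transporters and 51.3% of all genes lower. At an unadjusted p under 0.05, 0 of the endothelium and 1 of the mural cell markers were lower (9.16% of all genes). The parts of vessel and myelin content in the transporter levels were not tested. The pigment epithelium markers, all 10 found and none at 0, summed to 321 and 243 FPKM (ND) but to 82.1 and 49.4 (HFD), 48.6 and 39.9 (HSD) and 71.4 and 28.2 (HFSD). With sucrose 6 of the 8 tested were lower at an unadjusted p under 0.05 (9.16% of all genes) and 0 at an adjusted one. In HFD, where these markers were low, the log2 difference from ND was positive for SLC2A1, SLC16A1, SLC3A2 and MFSD2A and negative for SLC13A3 (-0.41), SLC6A6 (-0.06) and SLC7A5 (-0.03). The part of pigment epithelium content in the transporter levels was not tested. Of the mural cell markers 8 of 8 were found, with sums of 6.96 to 21.3 FPKM without sucrose and 3.79 to 9.36 with it, and of the fibroblast markers 6 of 6, with 17.8 to 28.4 and 16.9 to 50.7 FPKM. Astrocyte markers, 4 of 4 found, summed to 379.5 to 1114 FPKM without and 234 to 476 with sucrose. All 3 tested were lower with sucrose (51.3% of all genes), 1 at an unadjusted p under 0.05 in limma (9.16%) and 0 at an adjusted one. GFAP differed by -4.30 (s.e.m. 1.25), at 216 and 203 FPKM (HFD), 2.37 and 1.08 (HSD) and 3.05 and 69.5 (HFSD), with the ND retinas far apart. Red cell markers (4 of 10 found) summed to 8.12 to 82.6 FPKM without and 0.701 to 42.6 with sucrose. Muscle markers (7 of 8) summed to 73.1 to 99.7 and 55.1 to 421, and rod markers (5 of 8) to 28301 to 37329 and 26844 to 30701.

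Other transporters known from brain and retinal vessels were taken as a list of 31 genes, written with earlier results known. Of these, 29 were found and 25 tested. With sucrose 20 were lower and 5 higher, with a median log2 difference of -0.17 against -0.0073 over all genes. Lower values were not limited to the sucrose diets. Compared with ND, 19 of the 25 were lower on the fat diet without sucrose (48.8% of all genes), with a median of -0.156. The HSD retinas had 19 lower (median -0.188), and the HFSD retinas 21 (median -0.189). None passed an adjusted p under 0.05 in limma (0.344% of all genes did in either direction), and at an unadjusted p under 0.05, 8 were lower and 1 higher, where 9.16% of all genes were lower and 9.17% higher. The lowest were SLCO1C1, which carries thyroid hormone (-1.44, s.e.m. 0.255), and the organic anion carrier SLCO1A2 (-1.20, s.e.m. 0.185), at Benjamini-Hochberg adjusted p of 0.0803 and 0.0579 in limma. Between HFD and ND, without any added sucrose, SLCO1A2 already differed by -1.06 (s.e.m. 0.261) and SLCO1C1 by -0.32 (s.e.m. 0.361). The highest were TFRC, the transferrin receptor (0.30, s.e.m. 0.101), and the insulin receptor INSR (0.17, s.e.m. 0.0761). ABCB1, the efflux pump P-glycoprotein of vessels, was at 3.07 and 0.0313 FPKM (ND), 1.28 and 0.873 (HFD), 0.105 and 0.289 (HSD) and 0.0669 and 0.501 (HFSD), again with the ND retinas far apart.

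Lactate carriers and enzymes that work beside MCT1 made up the next list. Of 7 genes listed 5 were found and tested, and BSG and SLC16A8 were not analysed here since no row carried these symbols. With sucrose 4 were higher, as were 48.7% of all genes, and 1 lower, 0 with an adjusted p under 0.05 in limma, and 2 were higher at an unadjusted p (9.17% of all genes). These were EMB, which escorts monocarboxylate carriers to the membrane (0.51, s.e.m. 0.157), and SLC16A7, the carrier MCT2 (0.58, s.e.m. 0.195). The diets with sucrose differed in direction on this list. Compared with ND, 4 of the 5 genes were lower on HSD (median -0.12), whereas 4 were higher on HFSD (median 0.42). EMB differed from ND by -0.12 on HSD but by 0.61 on HFSD, and by -0.54 on HFD (s.e.m. 0.222). SLC16A7 was higher on both sucrose diets, by 0.43 on HSD and 0.55 on HFSD (s.e.m. 0.275). LDHB had the one negative value (-0.21, s.e.m. 0.132).

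Genes of tight junctions and barrier structure showed no shared direction. Of 17 listed, 14 were found and 10 tested, 5 lower and 5 higher with sucrose, with a median of -0.02. None passed an adjusted p under 0.05 in limma, and at an unadjusted p 0 were lower (9.16% of all genes) and 2 higher (9.17%). CAV1, the coat protein of caveolae, had a difference of 0.35 (s.e.m. 0.0815) and the scaffold protein TJP1 of 0.29 (s.e.m. 0.0868). CLDN5, the claudin of barrier endothelium, had the most negative value, -1.93 (s.e.m. 0.876), with levels of 28.01 and 1.03 FPKM for the ND pair, so that the diets overlapped. F11R followed with -0.48 (s.e.m. 0.246).

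Norrin and Wnt ligands act through FZD4 and β-catenin in endothelium to induce barrier genes. Of 22 genes of this signalling, 18 were found and 13 tested, 8 lower and 5 higher with sucrose, with a median of -0.11. None passed an adjusted p under 0.05 in limma, and at an unadjusted p 4 were lower (9.16% of all genes) and 1 higher (9.17%). APCDD1, a Wnt inhibitor induced by the pathway, had the most negative value (-0.94, s.e.m. 0.171), at a Benjamini-Hochberg adjusted p of 0.0838 in limma. The receptor FZD4 and the coreceptor LRP6 had the highest values, 0.42 (s.e.m. 0.172) and 0.23 (s.e.m. 0.152).

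**Figure D4:**
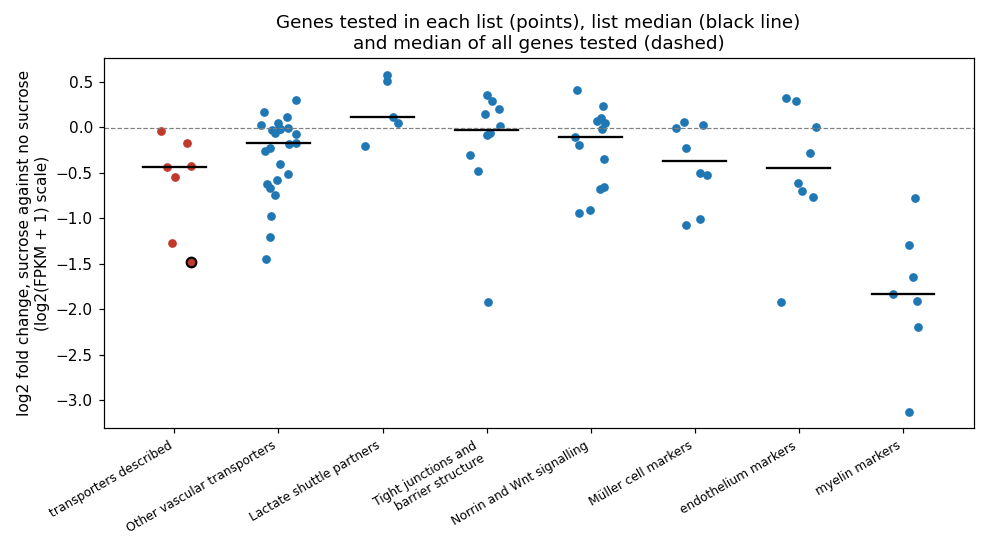
Log2 difference between sucrose and no sucrose (vertical axis, log2(FPKM + 1) scale) of each gene tested (points) in the transporters, the companion lists and 3 marker lists (horizontal axis), with list medians (black) and the median of all genes (dashed). The outlined point is SLC13A3 at -1.48, and the median of the transporters is -0.44.

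The genes with the profile most like the mean of the 7 standardised transporter profiles were TXNDC11, LGMN, GNAI2, NPC2 and CTDP1, with a Pearson r of 0.968 to 0.983 over the 8 libraries among 9877 genes with a symbol. The closest to single transporters were EIF2B2 and OTULINL for SLC2A1 (0.991 and 0.984), CCAR2 and MFSD2A for SLC16A1 (0.987 and 0.969), NPC2 and GNAI2 for SLC3A2 (0.991 and 0.989), CCAR2 and PAFAH2 for MFSD2A (0.982 and 0.981), YBX3 and VPS51 for SLC13A3 (0.984 and 0.966), DAB2IP and GRID1 for SLC6A6 (0.978 and 0.957), and ASB13 and RPP14 for SLC7A5 (0.954 and 0.930). These values describe 8 libraries that share diets, tissue content and depth, and carry no test.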

How the data were processed

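RNA from 8 retinas (2 for each diet) had been sequenced on an Illumina instrument. The authors trimmed the reads after FastQC, aligned them with TopHat2 to a rabbit genome, left out reads with several positions, and deposited FPKM per gene and library, computed with an R script. The genome build and annotation are not given in the sources used here, so no coordinates or sequences are printed. All value columns matched a sample (0 were left over).

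Whole fragments and the depth of each library were recovered from the FPKM steps, and 100% of values above 0 came out whole within 0.01 fragments. The depths (15764577 to 22785832) limit the precision of low genes. In R 4.3.3, limma 3.58.1 was fitted to log2(FPKM + 1) with a mean for each diet and a mean-variance trend. The test covered the 12204 protein-coding genes that reached 1 FPKM in 2 or more libraries, with Benjamini-Hochberg adjustment. The fit was tested on simulated data. The members and lists were chosen with earlier results of these data known. Genes named outside the transporters were those with an adjusted p under 0.05 and, of each list, the 2 with the largest fall and rise with sucrose, marker genes that state a level, and the genes most alike in profile. One gene that this rule names is not reported here. ABCB1 and the families in the closing section were chosen after their values were seen. Alternatives varied the pseudocount, filter, scaling, trend, replicate block, model and libraries.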

Additional observations from a re-analysis of the deposited data

How the results depend on the processing

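Of the differences described, the direction in the sucrose contrast held in 17 of 17 alternative fits for 6 of the 7 transporters and in 12 for SLC7A5. Leaving out single retinas, the median log2 difference of the 7 ranged from -0.034 to 0.18 in HFD, from -0.64 to -0.28 in HSD, from -0.52 to -0.28 in HFSD, from -0.55 to -0.37 for sucrose, from -0.033 to 0.095 for fat and from -0.18 to 0.040 for the interaction, so that the signs of HFD, fat and interaction rested on single retinas. The number called lower with sucrose ranged from 0 to 1 in these fits, and was 0 without a filter, 0 with voom on fragments and 3 (SLC2A1, SLC3A2 and SLC13A3) in a model of 2 groups of 4 libraries. Without ND replicate 1 the call was MFSD2A and not SLC13A3. Without ND replicate 1 and HSD replicate 2 together, a choice made after seeing the data, the medians were -0.034 in HFD, -0.53 in HSD, -0.52 in HFSD, -0.54 for sucrose and 0.051 for the interaction, and 0 were called. By the fold limits, 0 to 1 genes passed the lower and 0 to 1 the upper limit in HFD, 2 to 4 the lower limit in HSD and 2 to 3 in HFSD. The cause was not tested.

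With the replicate number as a block, the sucrose median was -0.44 and 1 transporter was called, while over all genes the calls went from 35 lower and 7 higher to 23 and 2. Deviations of same-numbered libraries from their diet means were weakly correlated (r from -0.16 to 0.08 between pairs). With 2 libraries for each diet, this cannot show whether the numbers pair the retinas. Without a filter 6 genes were lower and 2 higher with sucrose, with voom 16 and 7, with libraries rescaled to equal sums 18 and 4, in 2 groups of 4 libraries 98 and 43, and with each retina left out 4 to 60 and 0 to 29. Depth limits SLC38A5, which rests on 131 fragments in 4 libraries without sucrose and 11 in 4 with it.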

Other observations

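SLC3A2 pairs with other light chains of the SLC7 family besides SLC7A5, and these were looked at after the values of SLC3A2 were seen. All 5 were tested, 3 were lower and 2 higher with sucrose, and none passed an adjusted p under 0.05 or an unadjusted p under 0.05 in limma (0.344% of all genes at the adjusted threshold, and 9.16% lower and 9.17% higher at the unadjusted one). SLC7A6, the most abundant of them and of the light chains examined, was at 82.4 and 75.7 FPKM (ND), 68.0 and 74.7 (HFD), 84.0 and 84.3 (HSD) and 95.6 and 60.8 (HFSD), with a log2 difference of 0.09 (s.e.m. 0.139) between sucrose and no sucrose. SLC7A11, the cystine-glutamate exchanger, was at 4.61 and 5.71 FPKM (ND), 5.73 and 7.96 (HFD), 6.89 and 9.63 (HSD) and 6.16 and 8.26 (HFSD), and differed by 0.32 (s.e.m. 0.161). SLC7A10 was at 1.15 and 1.23 FPKM in ND and between 0.0446 and 0.586 FPKM in every other library.

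Of 13 other members of the glucose transporter family, 3 were tested. SLC2A12 differed by 0.17 (s.e.m. 0.122), SLC2A8 by 0.11 (s.e.m. 0.130) and SLC2A10 by -0.38 (s.e.m. 0.170) between sucrose and no sucrose, and none of the 3 passed an adjusted p under 0.05 (0.344% of all genes) or an unadjusted one (9.16% of all genes lower, 9.17% higher) in limma. The highest level among them was 9.97 FPKM, for SLC2A12 in HSD replicate 1, against at least 169 FPKM for SLC2A1. SLC2A4, the insulin-responsive carrier of muscle, was at 1.10 FPKM in HSD replicate 2, the library with skeletal muscle RNA, and at most 0.194 FPKM in the others.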
